A study of Sus scrofa with 92 samples.

Results

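The pyruvate dehydrogenase kinases PDK1, PDK2, PDK3 and PDK4 were followed in the livers of pigs subjected to hemorrhagic shock and polytrauma. They are 4 of the 25322 pig Ensembl genes counted, and were found as the genes whose identifiers carry these symbols: ENSSSCG00000015958 (PDK1), ENSSSCG00000027198 (PDK2), ENSSSCG00000012181 (PDK3) and ENSSSCG00000015334 (PDK4). The family was chosen by the measured fall of PDK2 from Baseline to 8 hours in fasted animals. That contrast is therefore described here with no test for any of the kinases.

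All animals were juvenile male Yorkshire-Landrace pigs, fasted overnight, instrumented and splenectomized. Fasted (FS, 18 pigs) animals received nothing more, and carbohydrate prefed (CPF, 5 pigs) animals received a bolus of diluted corn syrup 1 hour before induction, and so before their first biopsy. Every pig then had a blunt chest injury, a hemorrhage with a liver crush injury, limited resuscitation with lactated Ringer's fluid and full resuscitation with fluid, shed blood and ventilator support. Peripheral liver biopsies were sequenced at Baseline (B, after instrumentation and before injury) and 2 (FR2), 8 (FR8) and 20 (FR20) hours after the start of full resuscitation. FR2vB denotes the change from Baseline to FR2, and other pairs are named likewise. No group was left uninjured, so the course of time, anesthesia and surgery cannot be told apart from that of shock and resuscitation.

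Pyruvate made from glucose, lactate or alanine enters the mitochondrial citric acid cycle as acetyl-CoA through the pyruvate dehydrogenase complex. The kinases phosphorylate the E1 alpha subunit of that complex and switch it off, and pyruvate dehydrogenase phosphatases remove the phosphate and switch it on again. In the fasted liver a switched-off complex spares pyruvate for gluconeogenesis while fatty acids are burned. PDK2 is the broadly expressed member of the family and PDK4 the member best known for induction by fasting. PDK1 is a known target of the hypoxia-inducible factor, and PDK3 is usually scarce in liver. The counts measure messenger RNA, and neither phosphorylation nor activity of the complex was measured.

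The 88 libraries used held 6877117 to 16613261 counts, from 15 FS and 5 CPF animals at B, 18 and 5 at FR2, 18 and 4 at FR8, and 18 and 5 at FR20. The Baseline libraries of FS animals 13, 14 and 16, which hold almost no albumin, and the FR8 library of CPF animal 1, with 4388 counts in all, were left out. Albumin was abundant in every library used, from 13202 to 168246 CPM, the counts of a gene per 1000000 counts of its library. In the FR2 and FR8 libraries of FS animal 8 every gene of the same chromosome as PDK3 (172 of 172) and PDK4 (243 of 243) with a median of at least 100 counts was listed at 0. PDK3 and PDK4 were therefore at 0 there, and PDK1 and PDK2 were not touched. In 16 further libraries (15 FS and 1 CPF, of 7 animals) other genes correlated better with another timepoint than with the labelled one, by more than 0.3. These were FR2, FR8 and FR20 of FS animals 13, 14 and 16, B, FR2 and FR8 of FS animal 7, FR8 and FR20 of FS animal 6, FR20 of FS animal 15 and FR20 of CPF animal 4. All labels were kept as given, and many results are also given over the 70 libraries without these 18, a choice made after seeing the data. Libraries were dropped for resembling another timepoint, so the 70 favor the labelled pattern over time. Adjusted p-values and calls from the 70 for changes over time lean toward a difference and are given as descriptions. Every share of all genes given below is from the 88 libraries, also where a value of the 70 stands beside it.

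Marker genes of cell types moved with time too. The summed level of 8 hepatocyte markers found of 10 listed had medians of 168540, 128637, 86119 and 60744 CPM at B, FR2, FR8 and FR20 in FS animals, with ranges of 92389 to 189766, 61516 to 140939, 65376 to 159322 and 34386 to 129990. It had medians of 167250, 125141, 88822 and 57228 CPM in CPF animals. Endothelial markers (3 of 6) ran from 82.7 to 193 CPM at CPF B and from 260 to 408 at CPF FR8, and their FS medians were 142, 179, 191 and 212. Adipocyte markers (3 of 6) had medians of 9.38, 7.86, 18.9 and 32.7 CPM in FS animals. Striated muscle markers (7 of 13) had medians between 2.21 and 4.54 CPM in every group, with MYH2, TNNC2 and ATP2A1 at 0 in 71, 56 and 49 of 88 libraries. Erythroid markers (2 of 3) had CPF medians of 152, 358.5, 59.7 and 177 CPM at Baseline, FR2, FR8 and FR20, and myeloid markers (7 of 8, with CSF3R at 0 in every library) had CPF medians of 80.3, 88.7, 79.8 and 130.5 CPM. These marker levels are CPM of all counts, while the kinase levels below are CPM scaled between libraries (TMM). The part of the marker shifts in the results below was not tested. In a biopsy, fewer cells of a type and less RNA per cell cannot be told apart.

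PDK2, the broadly expressed kinase, was lower after injury in both fed states and lowest at FR8. In FS animals the lowest, median and highest level was 29.0, 129 and 239 CPM at B (n = 15). At FR2 they were 19.5, 48.7 and 99.2 CPM (n = 18). At FR8 they were 8.44, 28.1 and 197 CPM, and at FR20 10.8, 66.5 and 120 CPM (n = 18 each). The Baseline median was 4.57 times the FR8 median, and 10 of 18 FR8 libraries lay below every Baseline library.

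The FS groups overlapped, and the libraries that resemble another timepoint held the extremes. The 4 FS FR8 libraries above 100 CPM (197, 174, 122 and 103 CPM in FS animals 13, 16, 6 and 14) were all of that kind, as was the lowest Baseline library, 29.0 CPM in FS animal 7. Over the 70 libraries FS Baseline ran from 64.9 to 239 CPM (median 134, n = 14) and FS FR8 from 8.44 to 50.8 CPM (median 23.4, n = 12), with no overlap. Here and below, the share of all genes without overlap was not counted, so a lack of overlap is only a description.

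Within FS animals PDK2 was lower than the animal's own Baseline in 15 of 15 at FR8 (median log2 difference of −2.19), in 14 of 15 at FR2 (−1.35) and in 13 of 15 at FR20 (−0.51). The fitted log2 fold changes were −1.52 for FR2vB, −1.82 for FR8vB and −1.02 for FR20vB. Without the 18 libraries they were −1.45, −2.56 and −0.75. FR20vFR8 was 0.81 over the 88 libraries, with PDK2 higher in 13 of 18 animals, and 1.81 over the 70, higher in 11 of 11. These FS values carry no test, since they use the libraries that led to the choice of the family. For scale, genes past both thresholds (an adjusted p under 0.05 and a log2 fold change of 1 or more in size) made up 11.8% of all genes tested at FR8vB and 1.46% at FR20vFR8, and those past the adjusted p alone 39.3% and 6.39%. FR20vFR2, which uses neither Baseline nor FR8 libraries, could be tested and was 0.50 (SE 0.31, adjusted p = 0.210), higher in 13 of 18 animals. Over the 70 libraries it was 0.70 (adjusted p = 0.00998), under the fold threshold and higher in 10 of 11. Of all genes, 35.9% passed the adjusted p alone over the 88 libraries.

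The CPF animals took no part in that choice, and there the fall of PDK2 could be tested. PDK2 was at 157, 85.4, 85.4, 86.9 and 152 CPM at B in CPF animals 1 to 5. It was at 48.7, 62.7, 53.3, 49.3 and 40.8 CPM at FR2, below every Baseline value. At FR8 animals 2 to 5 had 19.4, 23.2, 61.5 and 10.4 CPM, again below every Baseline value. At FR20 the 5 animals had 87.6, 46.3, 39.1, 123 and 71.7 CPM, and overlapped Baseline.

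PDK2 fell at FR8vB in CPF animals with a log2 fold change of −2.10 (SE 0.68, adjusted p = 0.0324, edgeR quasi-likelihood test), lower in 4 of 4 animals. Of all genes tested, 8.83% were called in this comparison, where called means past both thresholds. PDK2 was 1 of 4 kinases called. The call did not hold without CPF animal 1, 2, 3 or 5 (adjusted p = 0.0510, 0.0877, 0.0800 and 0.200), with log2 fold changes of −2.62 to −1.64 over all 5 omissions. It was made in 12 of 13 other settings, and was missed with the albumin-less Baselines kept (adjusted p = 0.0604).

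The CPF changes at FR2vB (−1.12, SE 0.59, adjusted p = 0.276) and FR20vB (−0.73, SE 0.59, adjusted p = 0.565) were not called. Genes called made up 2.41% and 0.702% of those tested, and 3.41% passed the adjusted p alone at FR2vB. PDK2 at FR2 was nevertheless lower in 5 of 5 animals, and over the 70 libraries FR2vB was called (−1.12, adjusted p = 0.0289). The shares above are of the 88 libraries, not of the 70. Between FR8 and FR20 PDK2 had a log2 fold change of 1.36 (SE 0.65, adjusted p = 0.442), higher in 4 of 4 CPF animals.

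**Figure D1:**
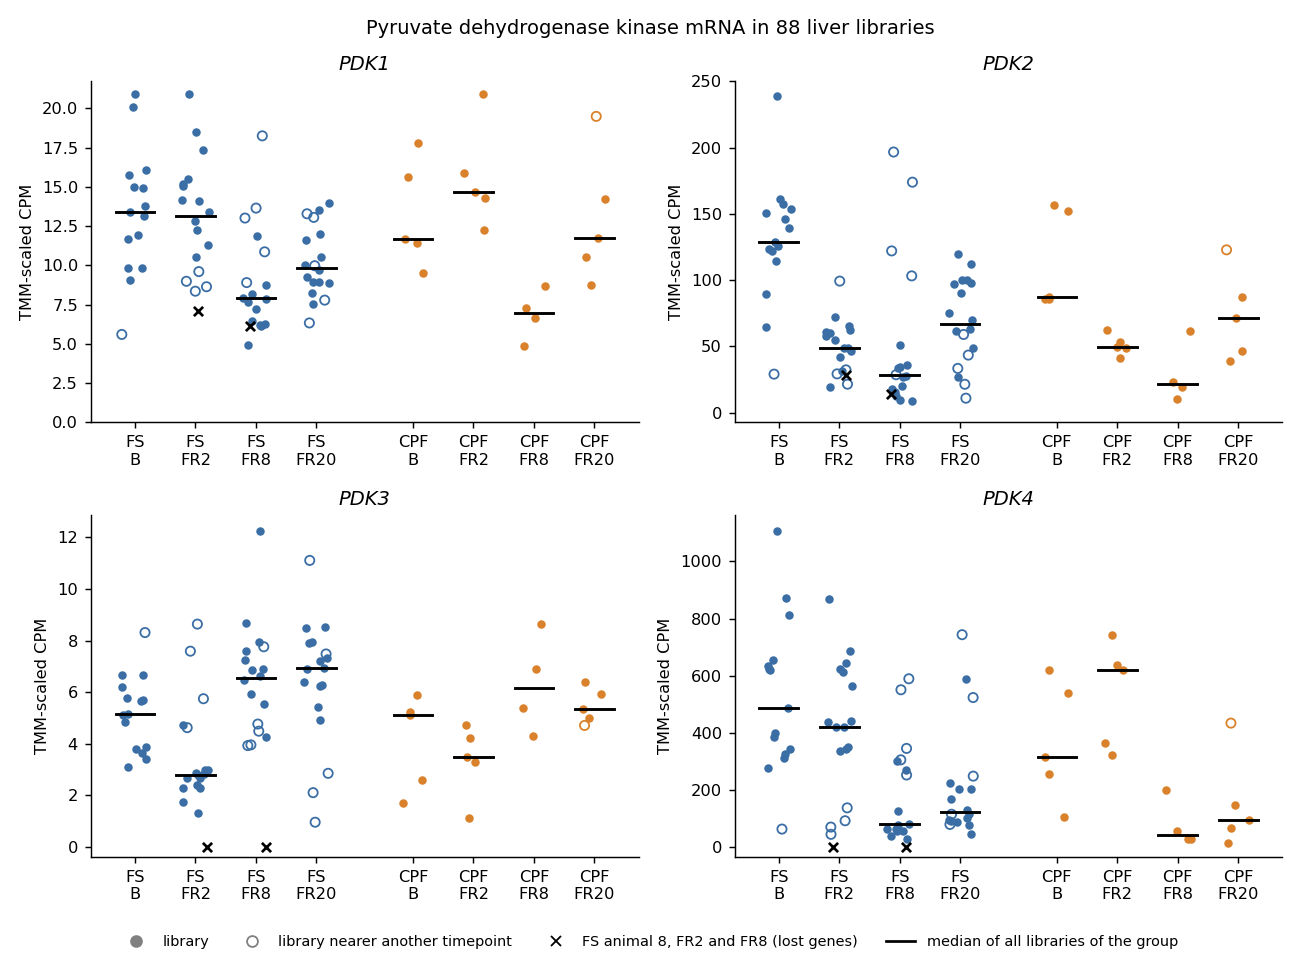
Level of each kinase (CPM, linear axis from 0) in every library by fed state and timepoint, with bars at group medians, open circles for libraries that resemble another timepoint and crosses for the FR2 and FR8 libraries of FS animal 8. PDK2 is lowest at FR8 in both fed states (medians of 28.1 and 21.3 CPM), and its 4 FS FR8 libraries above 100 CPM are open circles.

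PDK4, the fasting-inducible kinase, had group medians at FR8 and FR20 below those at B and FR2 in both fed states. In FS animals the lowest, median and highest level was 62.7, 486 and 1106 CPM at B. At FR2 the median was 420 CPM and the highest 868. At FR8 the median was 79.2 CPM and the highest 589, and at FR20 the lowest, median and highest were 47.1, 122 and 744 CPM. The lowest value at FR2 and FR8 was the 0 of FS animal 8.

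In FS animals PDK4 fell at FR20vB with a log2 fold change of −1.71 (SE 0.54, adjusted p = 0.0102), and was lower in 14 of 15 animals. It was the 1 kinase called of the 3 tested in this comparison (PDK1, PDK3 and PDK4), where 9.94% of all genes were called. The call was made in 13 of 13 other settings and in 18 of 18 fits without 1 FS animal, with log2 fold changes of −1.91 to −1.53. Over the 70 libraries it was −1.89 (adjusted p = 2.6e-06). The FS FR20vFR2 change of −1.25 (SE 0.52, adjusted p = 0.0528) was not called, but 5 of 13 other settings called it. PDK4 was lower there in 14 of 18 animals, and in 14 of 17 without the 0 of FS animal 8. The FS FR2vB change of −0.46 (SE 0.51, adjusted p = 0.487) was not called, and 11% of all genes were.

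At FR8vB in FS animals PDK4 had a log2 fold change of −1.99, and at FR8vFR2 −1.53, given as descriptions. They were −2.64 and −2.58 over the 70 libraries, and FR8vFR2 was lower in 12 of 12 animals. At FR8vFR2 5.96% of all genes were called and 28.4% passed the adjusted p alone. At FR8 it was lower than Baseline in 14 of 15 animals, 1 of which was the 0 of FS animal 8. The highest FR8 values, 589 and 551 CPM in FS animals 13 and 16, came from libraries that resemble Baseline. Over the 70 libraries FS FR8 ran from 28.8 to 301 CPM, below all 13 FR2 libraries, which had at least 338 CPM.

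CPF animals 1 to 5 had PDK4 at 257, 541, 621, 105 and 314 CPM at B. They had 636, 365, 321, 743 and 620 CPM at FR2. Animals 2 to 5 had 54.8, 201, 27.3 and 26.8 CPM at FR8, all below the 5 FR2 values. At FR20 the 5 animals had 94.6, 65.2, 147, 434 and 15.1 CPM. The 434 CPM of CPF animal 4 came from the CPF library that resembles Baseline.

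In CPF animals the quasi-likelihood test called no change of PDK4 over the 88 libraries. The largest was FR8vFR2, at −3.23 (SE 1.14, adjusted p = 0.0616), lower in 4 of 4 animals, in a comparison where 4.92% of all genes were called. FR8vB was −2.61 (SE 1.07, adjusted p = 0.0887), lower in 4 of 4, beside 8.83% of all genes called. FR20vFR2 was −2.24 (SE 0.99, adjusted p = 0.124), lower in 5 of 5, beside 5.99% of all genes called. All of these were called over the 70 libraries, where they were −3.43 (adjusted p = 2.0e-05), −2.53 (adjusted p = 0.00038) and −3.38 (adjusted p = 2.1e-05). FR20vB, at −1.62 (SE 1.03, adjusted p = 0.443) beside 0.702% of all genes called, was also called there, at −2.48 (adjusted p = 0.00088). These shares are of the 88 libraries, and the 70 called more of all genes at FR8vB and FR8vFR2. The 70 libraries were picked after seeing the data and lean toward differences between timepoints. Their calls are therefore no support for a change of PDK4. Of 13 other settings, these 70 libraries among them, 5 called FR8vFR2, 3 FR8vB, 2 FR20vFR2 and 1 FR20vB. DESeq2 and the edgeR likelihood ratio test over the 88 libraries were among the 5.

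**Figure D2:**
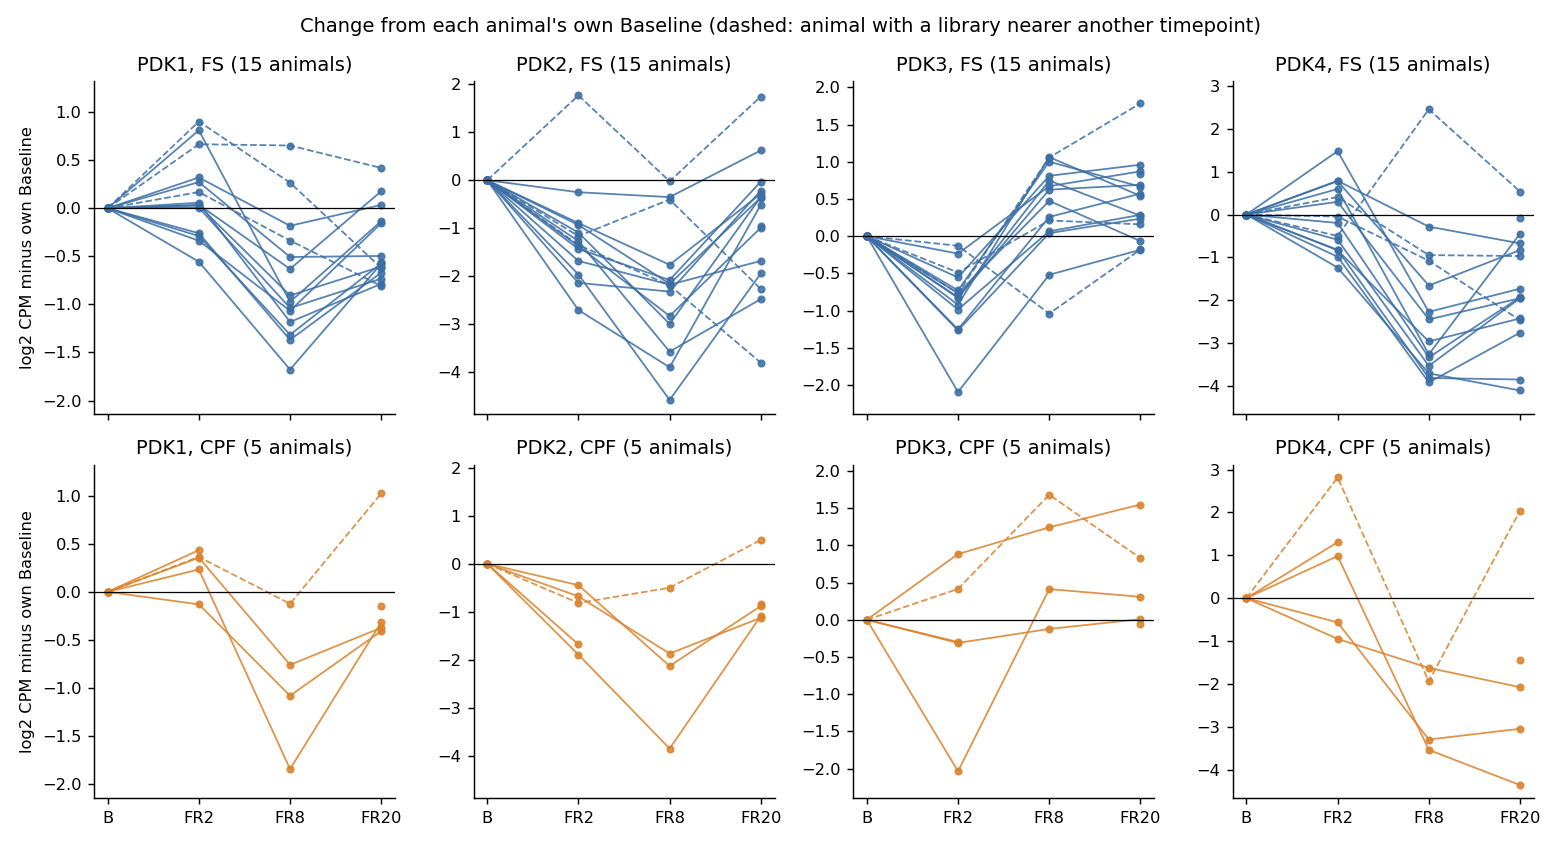
Log2 CPM of each kinase minus the same animal's Baseline at FR2, FR8 and FR20, with 1 line per animal, dashed where a library of the animal resembles another timepoint, and the FR2 and FR8 points of FS animal 8 left out. PDK2 lies below 0 at FR8 in every animal, and PDK4 lies below 0 at FR20 in 14 of 15 FS and 4 of 5 CPF animals.

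PDK1, the hypoxia-responsive member, had its lowest median at FR8 in both fed states. In FS animals the lowest, median and highest level was 5.60, 13.4 and 20.9 CPM at B and 7.08, 13.1 and 20.9 CPM at FR2. At FR8 they were 4.93, 7.91 and 18.2 CPM, and at FR20 6.34, 9.86 and 13.98 CPM. The FS groups overlapped at all timepoints.

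CPF animals 1 to 5 had PDK1 at 11.7, 17.8, 15.6, 9.50 and 11.4 CPM at B and at 15.9, 20.9, 14.3, 12.3 and 14.7 CPM at FR2. Animals 2 to 5 had 4.84, 7.31, 8.71 and 6.68 CPM at FR8. At FR20 the 5 animals had 10.6, 14.3, 11.7, 19.5 and 8.78 CPM. The FR8 values were below every other CPF value of PDK1, but barely so at FR20 (8.71 against 8.78 CPM). How many of all genes separate in this way was not counted.

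From FR2 to FR8 in CPF animals PDK1 fell with a log2 fold change of −1.20 (SE 0.30, adjusted p = 0.0138), in 4 of 4 animals, and was the 1 kinase of 4 called. It was also the 1 past the adjusted p alone, as were 7.21% of all genes. The call was made in 13 of 13 other settings. It did not hold without CPF animal 2 (−0.94, adjusted p = 0.110) or 5 (−1.24, adjusted p = 0.0544). Against Baseline the CPF FR8 change was −0.96 (SE 0.29, adjusted p = 0.0236), which passed the adjusted p, as 13.3% of all genes did, but was under the fold threshold. From FR8 to FR20 the change was 0.91 (SE 0.29, adjusted p = 0.203), higher in 4 of 4 animals without overlap. Only 0.022% of all genes were called between these timepoints.

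In FS animals the PDK1 changes at FR20vB (−0.42, SE 0.15, adjusted p = 0.0229) and FR20vFR2 (−0.36, SE 0.14, adjusted p = 0.0394) passed the adjusted p, as 33.8% and 35.9% of all genes did, and were under the fold threshold. FR2vB was −0.06 (SE 0.15, adjusted p = 0.762). FR8vB was −0.63, as a description, with PDK1 lower in 13 of 15 animals.

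PDK3, the scarcest in counts, had higher medians at FR8 and FR20 than at B in both fed states. In FS animals the lowest, median and highest level was 3.10, 5.16 and 8.31 CPM at B. At FR2 the median was 2.80 CPM and the highest 8.64, and at FR8 the median was 6.56 CPM and the highest 12.2, with the 0 of FS animal 8 lowest at both. At FR20 the lowest, median and highest were 0.960, 6.93 and 11.1 CPM. At FR2 13 of 18 libraries lay below all 15 Baseline libraries.

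From FR2 to FR20 in FS animals PDK3 had a log2 fold change of 1.00 (SE 0.28, adjusted p = 0.00351), higher in 14 of 18 animals. The 0 of FS animal 8 at FR2 entered this fit and this count. Without the libraries with lost genes PDK3 was higher in 13 of 17. The unrounded change was just under the fold threshold, so it was not called, and 8 of 13 other settings called it. Over the 70 libraries it was 1.44 (adjusted p = 1.0e-10), and the 13 FR2 libraries (1.32 to 4.72 CPM) lay below the 13 FR20 libraries (4.93 to 8.54 CPM). Genes called made up 8.59% of those tested over the 88 libraries.

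At FR2vB in FS animals PDK3 had a change of −0.66 (SE 0.29, adjusted p = 0.0639), lower in 15 of 15 animals and in 14 of 14 without FS animal 8, where 41.4% of all genes passed the adjusted p alone. Over the 70 libraries it was −0.94 (adjusted p = 1.6e-06), under the fold threshold. FR20vB was 0.34 (SE 0.28, adjusted p = 0.355), higher in 12 of 15 animals.

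CPF animals 1 to 5 had PDK3 at 5.22, 1.72, 5.90, 2.58 and 5.13 CPM at B and at 4.21, 3.31, 4.72, 3.49 and 1.13 CPM at FR2. Animals 2 to 5 had 4.29, 5.40, 8.63 and 6.88 CPM at FR8, and the 5 animals had 4.99, 5.35, 5.94, 4.71 and 6.40 CPM at FR20. No CPF change of PDK3 was called. FR8vFR2 was 0.96 (SE 0.55, adjusted p = 0.253), higher in 4 of 4 animals, and FR20vFR2 was 0.72 (SE 0.51, adjusted p = 0.360), higher in 5 of 5. Low counts limit PDK3, which had 9 to 196 counts per library (median 62) outside the libraries of FS animal 8. The others had medians of 132 (PDK1), 703.5 (PDK2) and 3260 (PDK4) counts.

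**Figure D3:**
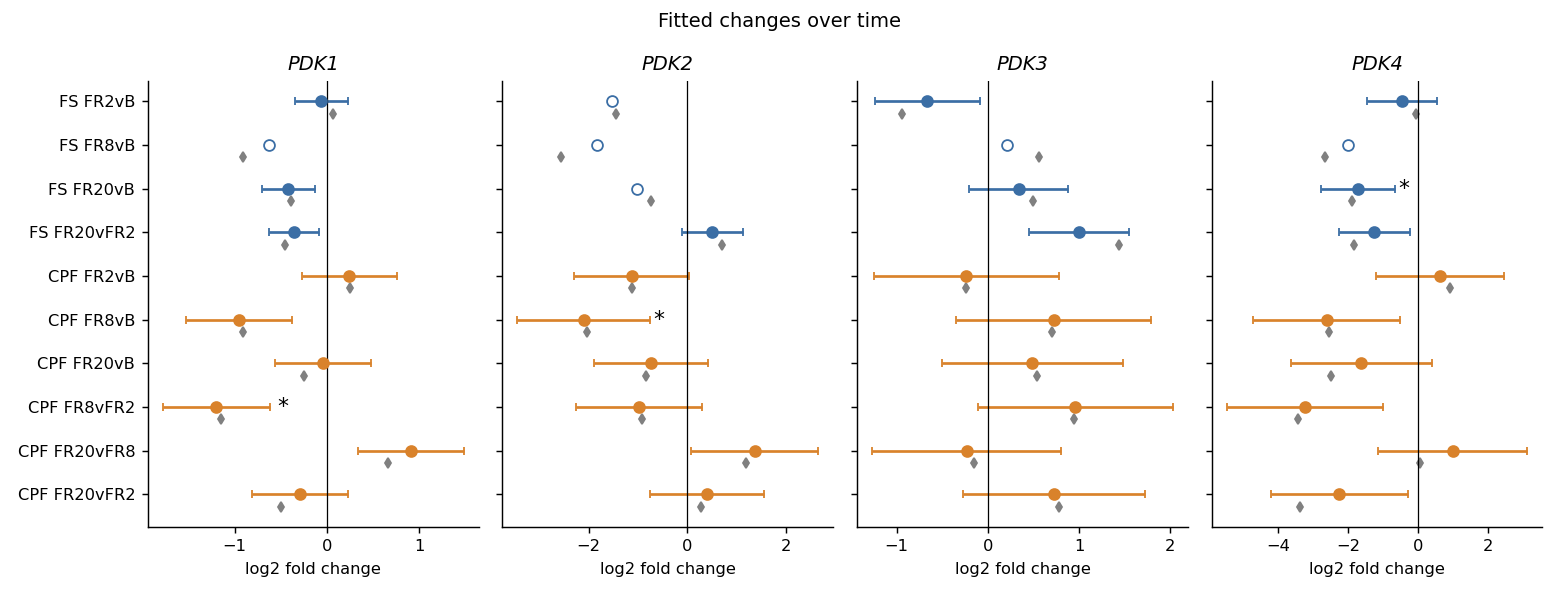
Fitted log2 fold change of each kinase with its 95% interval in FS and CPF animals, with open points for values described without a test, asterisks for called values and grey diamonds for the fit of 70 libraries. The called tested values are PDK2 at CPF FR8vB (−2.10), PDK1 at CPF FR8vFR2 (−1.20) and PDK4 at FS FR20vB (−1.71).

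The order of the 8 groups by median level differed between kinases. PDK2 ran from FS B (129 CPM) through CPF B (86.9), CPF FR20 (71.7), FS FR20 (66.5), CPF FR2 (49.3), FS FR2 (48.7) and FS FR8 (28.1) to CPF FR8 (21.3). PDK4 and PDK1 were highest at CPF FR2 (620 and 14.7 CPM) and lowest at CPF FR8 (41.0 and 6.99 CPM). PDK3 was highest at FS FR20 (6.93 CPM) and lowest at FS FR2 (2.80 CPM). For every kinase, each group overlapped with the next in this order.

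Whether feeding altered these levels was asked by comparing CPF with FS animals at each timepoint, and by comparing their changes from Baseline. Values that rest on the FS libraries behind the choice of the family, namely all at FR8 and those of PDK2 at Baseline and in the changes, are given without a test. No tested value of a kinase was called in these comparisons, where 0% of all genes were called, except at Baseline with 0.0257%, and 0.0342% past the adjusted p alone. None of the 17 tested values had an unadjusted p under 0.05, and DESeq2 and the edgeR likelihood ratio test also called 0 kinases. Over all genes 397 to 895 had an unadjusted p under 0.05 in a comparison, DESeq2 called 0 to 31 and the likelihood ratio test 0 to 25. The intervals were wide. At Baseline, CPF minus FS was −0.01 (95% interval −0.46 to 0.43) for PDK1, −0.34 (−0.86 to 0.18) for PDK3 and −0.52 (−1.36 to 0.32) for PDK4. At FR2 it was 0.26 (−0.14 to 0.66) for PDK1, 0.06 (−0.47 to 0.58) for PDK2, −0.02 (−0.95 to 0.92) for PDK3 and 0.44 (−0.87 to 1.75) for PDK4. At FR20 it was 0.34 (−0.01 to 0.69) for PDK1, 0.10 (−0.63 to 0.84) for PDK2, −0.23 (−0.84 to 0.38) for PDK3 and −0.50 (−1.70 to 0.70) for PDK4. The CPF minus FS difference in FR2vB was 0.31 (−0.29 to 0.90) for PDK1, 0.43 (−0.74 to 1.59) for PDK3 and 1.09 (−0.99 to 3.17) for PDK4. For FR20vB it was 0.37 (−0.22 to 0.97), 0.15 (−0.97 to 1.27) and 0.09 (−2.14 to 2.32). A difference between fed states of 2-fold or more is thus inside the interval for PDK4 in all of these.

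No kinase was called between fed states over the 70 libraries either, but several values moved. At FR20 CPF minus FS was 0.16 for PDK1, −0.41 for PDK2, −0.28 for PDK3 and −1.02 for PDK4. At FR2 PDK3 had 0.35 there, and the difference in FR20vB of PDK4 was −0.59. The difference in FR2vB of PDK3 was 0.69 (unadjusted p = 0.0247, adjusted p = 0.631). As descriptions, CPF minus FS at FR8 was −0.38 for PDK1, −0.88 for PDK2, 0.02 for PDK3 and −1.24 for PDK4 over the 88 libraries, and −0.11, 0.24, −0.18 and −0.40 over the 70. The differences in FR8vB were −0.32, −0.28, 0.52 and −0.62 over the 88 libraries, and 0.0048, 0.53, 0.14 and 0.11 over the 70. PDK2 had −0.20 at Baseline, 0.40 in the difference in FR2vB and 0.28 in that in FR20vB, and −0.27, 0.33 and −0.10 over the 70.

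Animals that died (3 FS and 2 CPF) were compared with those that lived at each timepoint, with a term for fed state. The values at FR8 and of PDK2 at Baseline share FS libraries with the contrast that chose the family. Survival took no part in that choice, but these tests are not fully separate from it. At FR8 PDK2 ran from 15.3 to 35.7 CPM (median 23.2) in the 5 that died and from 8.44 to 197 CPM (median 27.8) in the 17 that lived. Among the 70 libraries the 11 that lived ran from 8.44 to 61.5 CPM (median 19.9), and the order of the medians was reversed. At FR20 PDK4 had a median of 115 CPM in animals that died and 122 CPM in those that lived, and 120 and 101 CPM over the 70 libraries. No kinase was called in these 16 comparisons (smallest adjusted p = 0.788), none had an unadjusted p under 0.05, and 0% of all genes were called. Over all genes 265 to 998 had an unadjusted p under 0.05, DESeq2 called 0 to 10 and the likelihood ratio test 0 to 11, none of them a kinase. The largest differences, died minus lived, were −0.94 for PDK2 at FR8 (95% interval −2.38 to 0.50) and −0.76 for PDK4 at FR20 (−1.996 to 0.48). They were −0.02 and 0.27 over the 70 libraries, and the largest was 1.05 for PDK4 at FR8 (adjusted p = 0.998), with 0 kinases called and PDK3 at FR8 at an unadjusted p of 0.0338.

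Other genes of pyruvate handling were read from hand-written lists in the same fits. Subunits of the pyruvate dehydrogenase complex, the target of the kinases, gave 0 of 5 called at CPF FR8vB, FS FR2vB or FS FR20vB, by edgeR or DESeq2, and 1, 2 and 2 had an unadjusted p under 0.05. Of all genes 8.83%, 11% and 9.94% were called in these comparisons. For this list and those below, counts of a few genes are read as no result about the list. Their median log2 fold changes were −0.01, −0.20 and −0.05, beside 0.04, −0.04 and 0.04 over all genes tested. PDHX, the component that anchors E3, had 0.45 at FS FR2vB (SE 0.09, adjusted p = 0.000129), under the fold threshold. PDHA1, which carries the phosphorylated sites, had −0.08 (SE 0.57, adjusted p = 0.948) at CPF FR8vB and −0.14 (SE 0.30, adjusted p = 0.747) at FS FR20vB. PDHA1, DLAT and DLD are listed at 0 in the FR2 and FR8 libraries of FS animal 8, and PDHA1 and DLAT also in the FR8 library of CPF animal 1. Without the 18 libraries 0 of 5 were called too.

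Of the phosphatases that reverse the kinases, 2 of 3 were tested. PDP1, a catalytic subunit, rose at FS FR20vB (1.03, SE 0.31, adjusted p = 0.00813), the comparison in which PDK4 fell. PDP1 was just past the fold threshold, on a median of 17 counts per library (0 to 72). At CPF FR8vB it had −0.01 (SE 0.57, adjusted p = 0.994). The pyruvate carrier subunit MPC2 was not called in these comparisons.

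Among the 6 tested enzymes that also use or make pyruvate, 1 rose and 1 fell at CPF FR8vB, where 8.83% of all genes were called. Lactate dehydrogenase LDHA, which interconverts pyruvate and lactate, rose by 1.26 (SE 0.38, adjusted p = 0.0200), and alanine aminotransferase GPT had −1.41 (SE 0.46, adjusted p = 0.0327). At FS FR20vB GPT fell (−1.44, SE 0.23, adjusted p = 1.8e-06) and the other 5 were not called, beside 9.94% of all genes called. The list medians were 0.57 and 0.47.

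Of the 4 tested genes of the branched-chain keto acid complex and its kinase, the closest relative of this family, BCKDHB fell at CPF FR8vB (−1.30, SE 0.37, adjusted p = 0.0153). None was called at FS FR2vB or FS FR20vB, where 2 and 1 had an unadjusted p under 0.05 and DESeq2 called 0. The shares of all genes called were 8.83% at CPF FR8vB, 11% at FS FR2vB and 9.94% at FS FR20vB.

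Of 7 tested genes of gluconeogenesis and glucose entry, PCK2, the mitochondrial phosphoenolpyruvate carboxykinase, fell at CPF FR8vB (−1.55, SE 0.38, adjusted p = 0.00587). PCK1, its cytosolic counterpart, fell at FS FR20vB (−1.25, SE 0.36, adjusted p = 0.00568). At FS FR2vB hexokinase HK2 rose (1.71, SE 0.52, adjusted p = 0.00639), on at most 31 counts per library. With the albumin-less Baselines kept, HK2 changed sign. The shares of all genes called were 8.83% at CPF FR8vB, 9.94% at FS FR20vB and 11% at FS FR2vB.

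Of the 10 tested regulators known to act on kinase genes, 1 rose and 2 fell at CPF FR8vB (8.83% of all genes called), 1 fell at FS FR2vB (11%) and 2 fell at FS FR20vB (9.94%), and counts this small are read as no result about the list. FOXO1, a fasting factor known to drive PDK4, fell at CPF FR2vB (−1.74, SE 0.39, adjusted p = 0.00833), CPF FR8vB (−1.96, SE 0.43, adjusted p = 0.00327), FS FR2vB (−1.43, SE 0.21, adjusted p = 3.2e-07) and FS FR20vB (−1.49, SE 0.21, adjusted p = 1.5e-07). FOXO3 fell at CPF FR8vB (−2.35) and FS FR20vB (−1.21). At CPF FR8vFR2 FOXO3 fell again (−2.04), as did the hepatocyte factor HNF4A (−1.37). ESRRA, an estrogen-related receptor, rose at CPF FR8vB (1.12, SE 0.25, adjusted p = 0.00386).

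PPAR alpha target genes, a set to which PDK4 itself is usually counted, went both ways. At CPF FR8vB, where 8.83% of all genes were called, 2 of 10 tested rose and 2 fell. The lipid droplet protein PLIN2 (3.24, SE 0.88, adjusted p = 0.0113) and the transcription factor CREB3L3 (2.46, SE 0.52, adjusted p = 0.00270) rose. CPT1A, the carnitine palmitoyltransferase of fatty acid entry, fell (−1.59, SE 0.39, adjusted p = 0.00584), as did the lipase inhibitor ANGPTL4 (−2.07, SE 0.66, adjusted p = 0.0293). At FS FR20vB the fasting hormone FGF21 (3.73), PLIN2 (2.82) and CREB3L3 (1.42) rose and ANGPTL4 fell (−1.60). The list medians were −0.49 and 0.01. At FS FR20vB 9.94% of all genes were called. Counts this small are read as no result about the list.

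Of 6 tested genes of insulin signalling, none was called at CPF FR8vB, where 1 had an unadjusted p under 0.05 and DESeq2 called 1. At FS FR2vB TRIB3, an inhibitor of AKT, rose (2.47), as did PIK3R1 (1.85), and IGFBP1, a secreted protein that insulin lowers, fell (−1.11). PIK3R1 had a median of only 6 counts per library (0 to 52). At FS FR20vB TRIB3 rose (1.86) and IGFBP1 fell (−2.11). The shares of all genes called were 8.83% at CPF FR8vB, 11% at FS FR2vB and 9.94% at FS FR20vB.

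**Figure D4:**
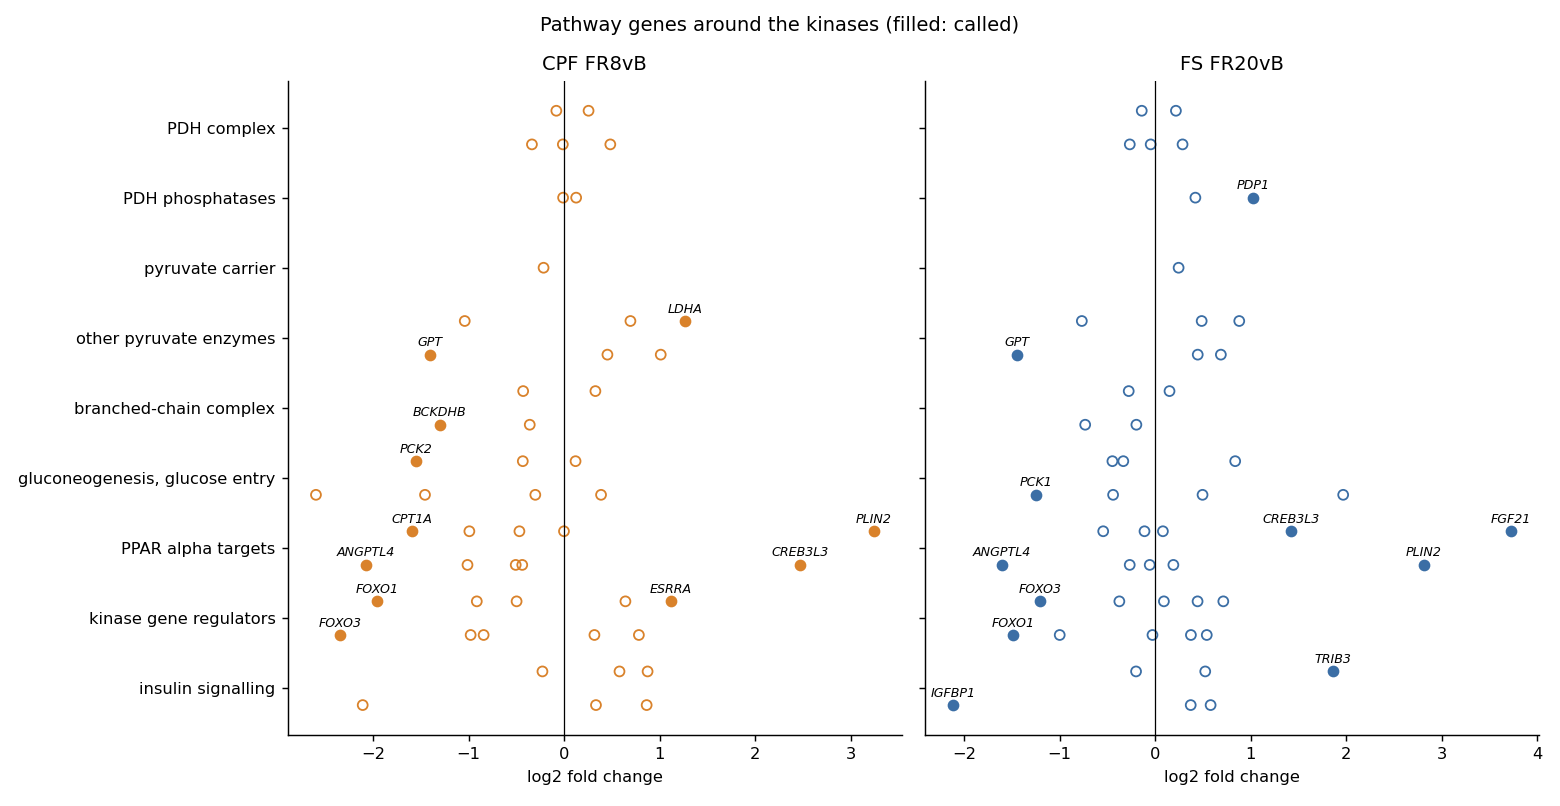
Log2 fold change of each tested gene of the pathway lists at CPF FR8vB and FS FR20vB, with 1 point per gene, filled and named where called. The pyruvate dehydrogenase complex has 0 of 5 genes called in both, and PPAR alpha targets have 4 of 10 called in each, in both directions. Of all genes 8.83% and 9.94% were called, and counts this small are read as no result about a list.

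The kinases did not share a single pattern over the libraries. Pearson's r of log2 CPM over the 86 libraries without those of FS animal 8 was 0.71 between PDK1 and PDK4, 0.56 between PDK1 and PDK2 and 0.48 between PDK2 and PDK4. PDK3 had −0.55 with PDK4, −0.47 with PDK1 and −0.13 with PDK2. Over all 88 libraries PDK3 and PDK4, both at 0 in the same pair of libraries, had 0.28. These values describe libraries that share animals, timepoints and depth.

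The genes most like each kinase were taken from the 5 with the highest r among 9605 genes with a symbol, over the 88 libraries. For PDK2 they were SULT1C4 (0.90), COQ8A (0.89), KCNN2 (0.89) and THOC5 (0.89), and the same genes were found over the 86 libraries. For PDK1 they were AACS (0.77), MPDZ (0.77), AGFG2 (0.76), GYS2 (0.75) and FASN (0.74). For PDK3 they were CEP164 (0.91), ENOX2 (0.88), SLCO2B1 (0.87) and RNF214 (0.86), and for PDK4 SLC37A4 (0.91), IVNS1ABP (0.90), FMO1 (0.87), RENBP (0.87) and PRDX6 (0.86). The values of PDK3 and PDK4 include the pair of libraries from FS animal 8 in which these kinases are listed at 0. Over the 86 libraries CEP164 had 0.80 with PDK3 and SLC37A4 0.80 with PDK4, and the other genes named for these kinases left the first 5. Over the 86 libraries the first gene was GTDC1 (0.81) for PDK3 and KLF9 (0.81) for PDK4.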

How the data were processed

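RNA from liver biopsies was made into Illumina TruSeq libraries, which do not keep the strand, and sequenced on an Illumina HiSeq instrument. The authors aligned reads to Sscrofa10.2 with TopHat (version 1.5.0 per the labels), sorted them with SAMtools and deposited raw HTSeq counts per pig Ensembl gene, neither filtered nor normalized. CASAVA 1.8.2 and edgeR 3.2.4 are also named in the submitters' processing notes. All 92 columns of the count table matched a library by its title, and 88 were used. Symbols came from a gene name table (11804 genes) and from the study's own gene tables (501 genes, identifiers only).

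The members, the lists and the comparisons were chosen with earlier results of these data known. Counts were scaled by TMM and tested with edgeR 4.0.16 (quasi-likelihood F test, 2-sided, R 4.3.3) for genes whose CPM summed to 10 or more, which all 4 kinases passed. Changes over time were fitted on 88 libraries with a term for each of 23 animals and separate FR2, FR8 and FR20 terms per fed state. Fed states, and animals that died or lived, were compared on the libraries of a timepoint. P-values were adjusted by Benjamini-Hochberg over all genes of a comparison. To be called, a gene needed an adjusted p under 0.05 and a log2 fold change of 1 or more in size. SE was computed from the fold change and its F statistic, with 95% intervals from it. Of the kinase values, 67 were tested and 3 called. Over all genes the share called ran from 0% to 11% between these comparisons, so the count is read as no result about the family. Levels of the kinases are TMM-scaled CPM, which can be compared between libraries but, with no gene lengths here, not between genes. Levels of albumin and the cell type markers are CPM of all counts of a library, without TMM scaling. Differences within an animal used log2 CPM with a prior count of 2. Replicates are separate animals. Depth is given with the libraries in the text.

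After group and timepoint were removed, the median correlation between libraries of 1 animal was 0.21 (94 of 126 pairs exceeded 0.1), against −0.02 between animals of the same group (543 of 2391), so the animal terms, which come from the animal codes in the labels, pair the libraries. No batch is given in the labels. Genes named besides the kinases are the called members of each list in the comparisons described, and the 5 genes most correlated with each kinase, apart from 3 genes that are not reported here. The fits were tested on simulated counts. Alternatives were RLE scaling, other filters, DESeq2 1.42.0, edgeR's likelihood ratio test, the study's design matrix, the adjusted p alone, 91 or 92 libraries, no animal terms and leaving out animals in turn. Leaving out the libraries of FS animal 8, FS animals 13, 14 and 16, or the libraries that resemble another timepoint was chosen after seeing the data.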

Additional observations from a re-analysis of the deposited data

Results flagged for a closer look

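PDK4 at FR8 in CPF animals was highest in animal 3, at 201 CPM. The gap to the next of the 4 animals took a share of 0.839 of the whole range, above Dixon's 95% critical value. This was the 1 outlier among 16 groups of 4 or 5 CPF animals, and chance gives about 1 in 20.

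The Baseline libraries of FS animals 13, 14 and 16, which hold almost no albumin and enter no comparison, had more PDK4 than any of the 20 other Baselines. As CPM of all counts PDK4 was at 1268, 6946 and 2766 in these animals, and at 69.5 to 985 (median 379) in the others. Striated muscle markers (7 of 13) summed to 32009, 38334 and 36303 CPM in these 3 libraries, against 0.865 to 125.8 CPM in the libraries used. Whether muscle in the biopsies accounts for their PDK4 was not tested. PDK1 in the library of FS animal 13, at 20.7, was also above the others (highest 19.6). PDK2 and PDK3 lay within the range of the other Baselines in all of these libraries, at 145, 143 and 97.8 for PDK2 and 3.99, 5.16 and 5.24 for PDK3.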

How the results depend on the processing

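Of 2641 recomputed values of kinases and listed genes, 2520 kept their direction and their side of the thresholds or stayed within the error, 71 lost a call, 41 gained one, 7 moved by more than that and 2 reversed. Log2 fold changes, called or not, changed sign 50 times, in 20 results, and the 2 reversals are among these. The called tested kinase values kept their direction in every alternative. In CPF animals 1 change from Baseline of 12 was called, PDK2 at FR8vB, beside 0.702% to 8.83% of all genes per comparison. The number was 2 with DESeq2, with the adjusted p alone and without the libraries of FS animal 8, 4 over 70 libraries, 0 with 91 libraries (PDK2 −2.10, adjusted p = 0.0604) and 0 to 2 without 1 animal, with PDK2 between −2.62 and −1.64. In FS animals 1 change of 6 was called, beside 9.94% to 11% of all genes. The number was 2 with the adjusted p alone, which 33.8% to 41.4% of all genes passed. Of 16 changes between later timepoints 1 was called, PDK1 at CPF FR8vFR2, beside 0.022% to 8.59% of all genes per comparison. The number was 2 with RLE scaling, with a CPM sum of 3 or more and with no filter, 3 with the adjusted p alone, and 4 with DESeq2, with the likelihood ratio test, without the libraries of FS animal 8 and without FS animals 13, 14 and 16. It was 5 over 70 libraries and 0 to 3 without 1 animal, with PDK1 between −1.40 and −0.94. The cause of these shifts was not tested. HK2 at FS FR2vB went from 1.71 to −1.92 with 91 libraries and −1.90 with 92 libraries, which hold Baselines with 8380 to 17401 HK2 counts. Without the animal terms as a replicate block the called kinase values were 1 from Baseline in CPF animals, 1 in FS animals and 1 between later timepoints, and PDK1 at CPF FR8vFR2 was −1.18 (adjusted p = 0.0157). Over all genes, CPF FR8vB gave 1207 calls, 1847 over 70 libraries, 484 with 92, 409 with 91 and 316 to 967 without 1 CPF animal. CPF FR8vFR2 gave 673, with 1622 over 70 libraries, 1178 with DESeq2, 1020 with the likelihood ratio test, 1276 without FS animals 13, 14 and 16, 387 without animal terms, 301 with 92 libraries, 286 with 91 and 6 to 519 without 1 CPF animal. With 4 CPF animals at FR8 and 5 elsewhere, the 95% interval of PDK4 at CPF FR8vB was −4.69 to −0.52.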
